A study of Arabidopsis thaliana with 6 samples.

Results

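The type-A response regulators of Arabidopsis thaliana are a family of 10 small proteins, ARR3 to ARR9 and ARR15 to ARR17, that restrain the response to the hormone cytokinin. They were chosen by locus identifier, and 9 of the 10 had a row among the 26800 gene rows used. ARR17 had none and was not analysed here. Transcript counts per gene came from 6 libraries of whole seedlings aged 12 days, 3 labelled wild type (Col-0) and 3 labelled vih1vih2, a double mutant of the kinase genes VIH1 and VIH2, whose products make the inositol pyrophosphate InsP8. Both groups grew on half-strength Murashige and Skoog medium with 1% sucrose and 1% agar, at 22 °C and a light intensity of 100 µmol m-2 s-1, and no treatment is named for either. Neither the alleles nor the origin of replicates from separate cultures is given in the sources used here. The p-values therefore rest on a spread between libraries that may be technical.

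Cytokinin is sensed at membranes by the histidine kinases AHK2, AHK3 and AHK4. They pass a phosphoryl group through the shuttle proteins of the AHP family to response regulators in the nucleus. Type-B response regulators are transcription factors that switch on cytokinin target genes, and the type-A genes are among their first targets. Type-A proteins have the same receiver domain but no DNA-binding domain, and they act back on the pathway as brakes, so their transcripts are widely used as a readout of cytokinin signalling. Phosphate starvation is known to lower both cytokinin content and AHK4 transcript in Arabidopsis, and cytokinin in turn represses several phosphate starvation genes.

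Most type-A transcripts were lower in the libraries labelled vih1vih2, and 1 was higher. Of the 9 members tested, 6 fell (ARR3, ARR5, ARR6, ARR7, ARR9 and ARR15) and ARR16 rose, while ARR4 and ARR8 did not pass the test. Over all 22818 genes tested, 19.4% were called lower and 21.4% higher, so 40.9% were called in all. The median log2 fold change was −1.33 over the 9 members and −0.00 over all genes. Here and below, "fell" and "rose" mean an adjusted p under 0.05 in the edgeR quasi-likelihood fit, after Benjamini-Hochberg correction across all genes tested. CPM are counts scaled by library size and TMM, given as mean ± SD of n = 3 libraries, and log2 fold changes are vih1vih2 over wild type ± standard error. In whole seedlings, fewer cells of a type and less RNA per cell cannot be told apart.

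Total counts ranged from 42697387 to 64410871 per library, so that 1 count was worth 0.0155 to 0.0234 CPM. The targeted genes were higher in the libraries labelled vih1vih2, with VIH1 (AT5G15070) at 6.39 ± 1.24 against 31.8 ± 2.10 CPM and VIH2 (AT3G01310) at 54.0 ± 7.47 against 676 ± 60.9 CPM. A count summed over a gene cannot tell whole from truncated transcripts. Each direction below is therefore that of the library labels.

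ARR5, ARR6, ARR7 and ARR15 are short members that cytokinin induces quickly, and all 4 fell. ARR5 (AT3G48100, chromosome 3, 17758427 to 17760950, minus strand of TAIR10.1, 5 exons), whose promoter serves as a common cytokinin reporter, had 871, 680 and 442 counts in wild type 1, 2 and 3. It had 154, 162 and 162 in vih1vih2 1, 2 and 3. The lowest wild type library lay far above the highest one labelled vih1vih2, and the latter lay close together. Its mean of 13.3 ± 2.13 CPM in wild type compared with 2.999 ± 0.213 CPM in vih1vih2 (log2 fold change −2.15 ± 0.16, adjusted p = 0.000316).

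ARR15 (AT1G74890, chromosome 1, 28131447 to 28133025, minus strand) is known to hold down cytokinin output in shoot stem cells and in the embryonic root together with ARR7. It had 94, 88 and 85 counts in the wild type libraries and 17, 14 and 17 in those labelled vih1vih2. The groups did not overlap, and per kilobase of exon ARR15 had the lowest level of the 9 members in the libraries labelled vih1vih2. Its level went from 1.84 ± 0.268 to 0.300 ± 0.0220 CPM, 6.09-fold lower (log2 fold change −2.61 ± 0.20, adjusted p = 0.000399).

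ARR7 (AT1G19050, chromosome 1, 6577833 to 6579314, minus strand) had 478, 383 and 262 counts in wild type and 177, 142 and 171 in vih1vih2. Its libraries fell into separate ranges, at 7.52 ± 0.970 and 3.06 ± 0.230 CPM (log2 fold change −1.30 ± 0.14, adjusted p = 0.00126). ARR6 (AT5G62920, chromosome 5, 25252007 to 25254318, minus strand) had 718, 512 and 451 counts in wild type and 330, 318 and 313 in vih1vih2. It fell the least of the 6, from 11.3 ± 0.484 to 6.02 ± 0.212 CPM (−0.91 ± 0.09, adjusted p = 0.000769), and its groups did not overlap. ARR6 overlaps AT5G62910, on the opposite strand, by 348 bases, and that gene had 1367 to 1957 counts per library. The library kit keeps strand, but the strand setting of the counting is not stated, so some ARR6 counts may belong to its neighbour.

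**Figure D1:**
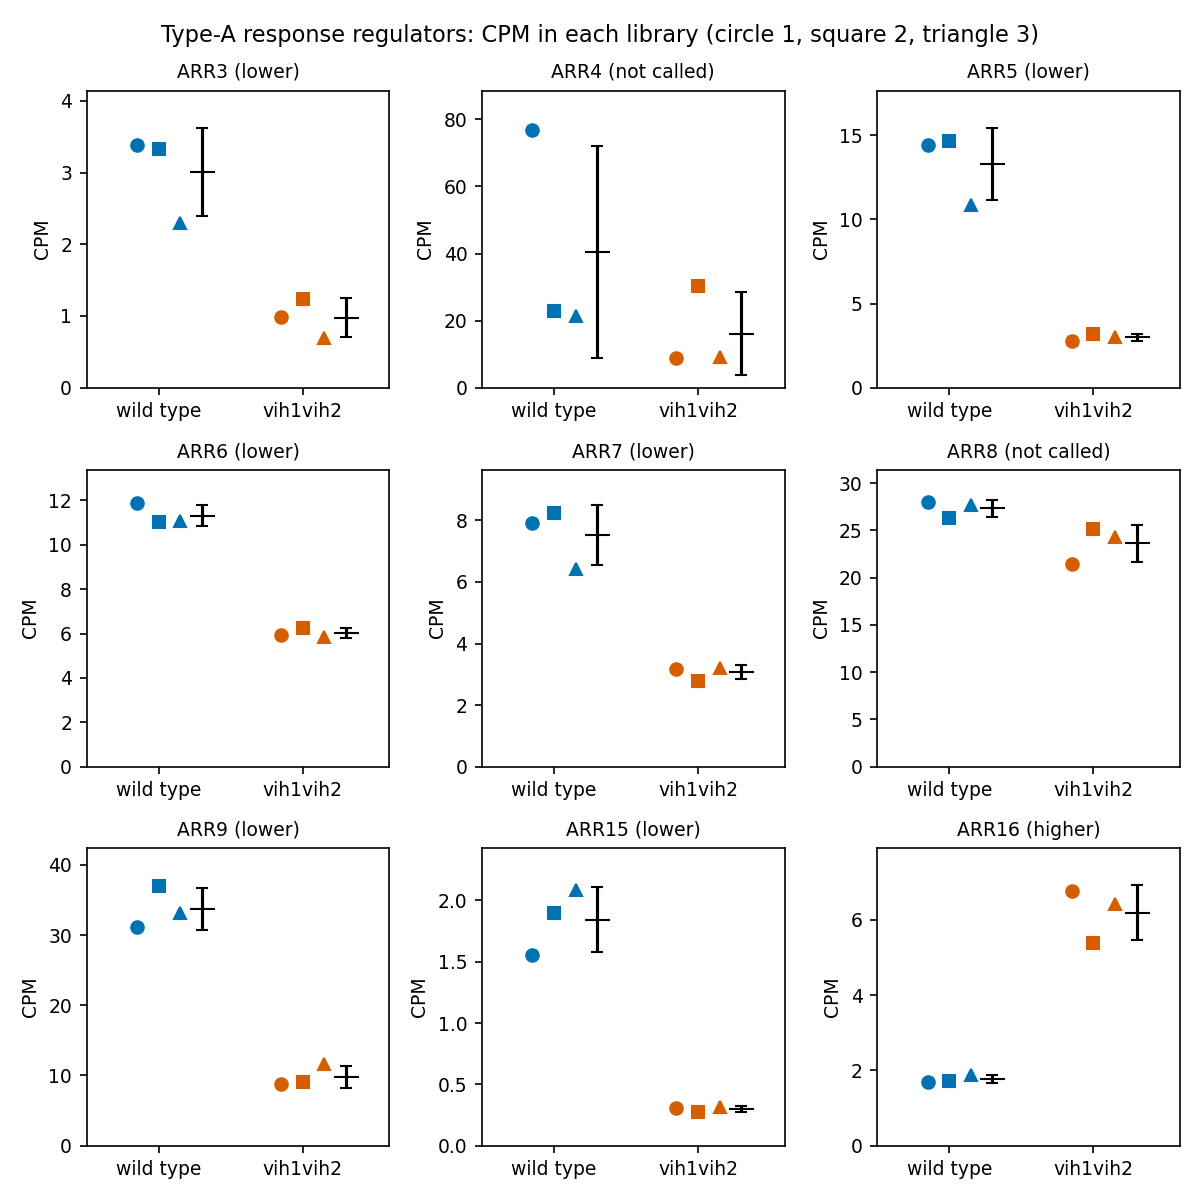
TMM-scaled CPM of the 9 type-A members with a row, in each library labelled wild type (blue) or vih1vih2 (orange). Symbols mark the library number, black bars the mean ± SD of 3 libraries, each vertical axis starts at 0, and the groups overlap for ARR4 alone among the 9.

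The windows before ARR5, ARR7 and ARR15 are shown because the type-B factors act on such upstream sequence and these 3 members fell. Each is the 250 bases before the annotated gene start, from RefSeq's TAIR10.1 genome and annotation, read 5′ to 3′ on the gene's strand (chr3:17760951-17761200 minus, chr1:6579315-6579564 minus and chr1:28133026-28133275 minus). Capitals mark the core letters bound by type-B factors on either strand, which are AGATT and its variant AGATC as well as GGATT and its variant GGATC.
ARR5: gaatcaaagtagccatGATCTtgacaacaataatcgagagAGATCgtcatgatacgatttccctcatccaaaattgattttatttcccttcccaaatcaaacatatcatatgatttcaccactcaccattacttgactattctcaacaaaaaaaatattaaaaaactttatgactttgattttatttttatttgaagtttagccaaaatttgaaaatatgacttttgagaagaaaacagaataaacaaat
ARR7: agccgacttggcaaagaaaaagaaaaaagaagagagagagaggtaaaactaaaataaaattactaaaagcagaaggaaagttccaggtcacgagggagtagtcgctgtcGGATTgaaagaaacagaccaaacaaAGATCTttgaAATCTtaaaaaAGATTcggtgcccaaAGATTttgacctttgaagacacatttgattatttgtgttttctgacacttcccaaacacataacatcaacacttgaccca
ARR15: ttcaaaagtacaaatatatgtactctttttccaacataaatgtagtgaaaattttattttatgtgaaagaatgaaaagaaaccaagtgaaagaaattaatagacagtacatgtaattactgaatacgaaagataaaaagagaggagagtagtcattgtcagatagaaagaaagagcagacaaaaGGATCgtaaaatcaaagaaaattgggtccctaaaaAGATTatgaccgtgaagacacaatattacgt
The window of ARR7 had the core letters at 6 positions, some of which overlap, while those of ARR5 and ARR15 had them at 2 positions each. Of 27437 windows of this length before protein-coding genes, 85.2% had at least 1 such match, 60.3% had at least 2 and 3.92% had at least 6.

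ARR8 and ARR9 are a pair with longer proteins (225 and 234 residues by their coding length, against 184 for ARR5), and ARR9 transcripts are known to cycle with the circadian clock. ARR9 (AT3G57040, chromosome 3, 21109059 to 21111567, plus strand) had 1884, 1721 and 1352 counts in the wild type libraries and 487, 457 and 622 in those labelled vih1vih2. Every wild type library was above every one labelled vih1vih2. ARR9 went from 33.8 ± 2.99 to 9.81 ± 1.61 CPM, 3.44-fold lower (log2 fold change −1.78 ± 0.15, adjusted p = 0.000488). A long non-coding RNA on the opposite strand, AT3G08825, overlaps it by 231 bases and had 0 to 7 counts per library.

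ARR8 (AT2G41310, chromosome 2, 17221840 to 17224880, plus strand), for which RefSeq uses the symbol RR3, was nearly level across the libraries. It had 1691, 1221 and 1132 counts in wild type and 1191, 1278 and 1298 in vih1vih2, or 27.3 ± 0.916 against 23.6 ± 1.97 CPM. Scaled for depth, the groups did not overlap, but the difference was small and was not called (−0.21 ± 0.09, adjusted p = 0.11). It overlaps the non-coding AT2G09250, on the opposite strand, by 299 bases, and that gene had no row. Both windows are shown because ARR9 fell, ARR8 was not called and their coding sequences were alike (chr2:17221590-17221839 plus and chr3:21108809-21109058 plus, marked as above).
ARR8: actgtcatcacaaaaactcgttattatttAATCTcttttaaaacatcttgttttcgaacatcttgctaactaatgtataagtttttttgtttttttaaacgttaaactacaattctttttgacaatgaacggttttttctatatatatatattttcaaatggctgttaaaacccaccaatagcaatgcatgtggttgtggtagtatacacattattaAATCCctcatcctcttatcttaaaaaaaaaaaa
ARR9: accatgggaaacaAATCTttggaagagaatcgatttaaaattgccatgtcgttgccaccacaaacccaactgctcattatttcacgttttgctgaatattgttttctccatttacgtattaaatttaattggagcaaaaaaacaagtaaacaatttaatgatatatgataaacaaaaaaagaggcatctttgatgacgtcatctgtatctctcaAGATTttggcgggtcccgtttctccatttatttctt
Each window had the core letters at 2 positions, so this count did not differ between them.

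ARR3 and ARR4 are the pair with the longest coding sequences of the family (323 and 259 residues), and ARR4 protein is known to bind the red light receptor phytochrome B. ARR3 (AT1G59940, chromosome 1, 22065617 to 22067233, minus strand) had 205, 155 and 94 counts in wild type and 55, 63 and 37 in vih1vih2. It fell from 3.01 ± 0.612 to 0.974 ± 0.274 CPM with no overlap between groups (−1.63 ± 0.28, adjusted p = 0.00718).

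ARR4 (AT1G10470, chromosome 1, 3441988 to 3444360, minus strand) had 4649, 1064 and 869 counts in wild type 1, 2 and 3 and 492, 1541 and 483 in vih1vih2 1, 2 and 3. Wild type 1 and vih1vih2 2 stood far above the others of their group, and vih1vih2 2 lay above wild type 2 and 3. The means were 40.4 ± 31.6 and 16.1 ± 12.4 CPM, and the log2 fold change of −1.33 ± 0.76 was not called (adjusted p = 0.226). Leaving out wild type 1 gave −0.46 and leaving out vih1vih2 2 gave −2.17, neither of them called (adjusted p = 0.634 and 0.0838, the extremes of a range over all alternatives run).

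ARR16 (AT2G40670, chromosome 2, 16969673 to 16972113, plus strand), whose transcription the stomatal factor SPEECHLESS is known to raise, was the only type-A member called higher. It had 102, 80 and 77 counts in the wild type libraries and 377, 273 and 342 in those labelled vih1vih2. Every library labelled vih1vih2 lay far above the highest wild type library. ARR16 rose from 1.77 ± 0.107 to 6.19 ± 0.727 CPM, 3.51-fold (log2 fold change 1.81 ± 0.14, adjusted p = 0.000355). Its window is shown because it was the member that rose and had the most core matches of the 10 (chr2:16969423-16969672 plus, marked as above).
ARR16: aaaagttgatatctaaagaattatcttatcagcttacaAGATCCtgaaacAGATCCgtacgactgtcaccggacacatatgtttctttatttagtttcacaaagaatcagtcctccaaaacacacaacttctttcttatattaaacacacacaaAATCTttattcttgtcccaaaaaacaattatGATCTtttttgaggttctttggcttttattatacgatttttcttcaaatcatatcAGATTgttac
The core letters stood at 7 positions, of which 2 pairs overlap, and 1.49% of all windows had at least as many. The longer form AGATACG, on either strand, was in none of the 10 windows and in 1.69% of all. The letters GNATATNC, bound by the phosphate factor PHR1, were in the window of ARR4 alone among the 10 and in 5.46% of all windows.

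**Figure D2:**
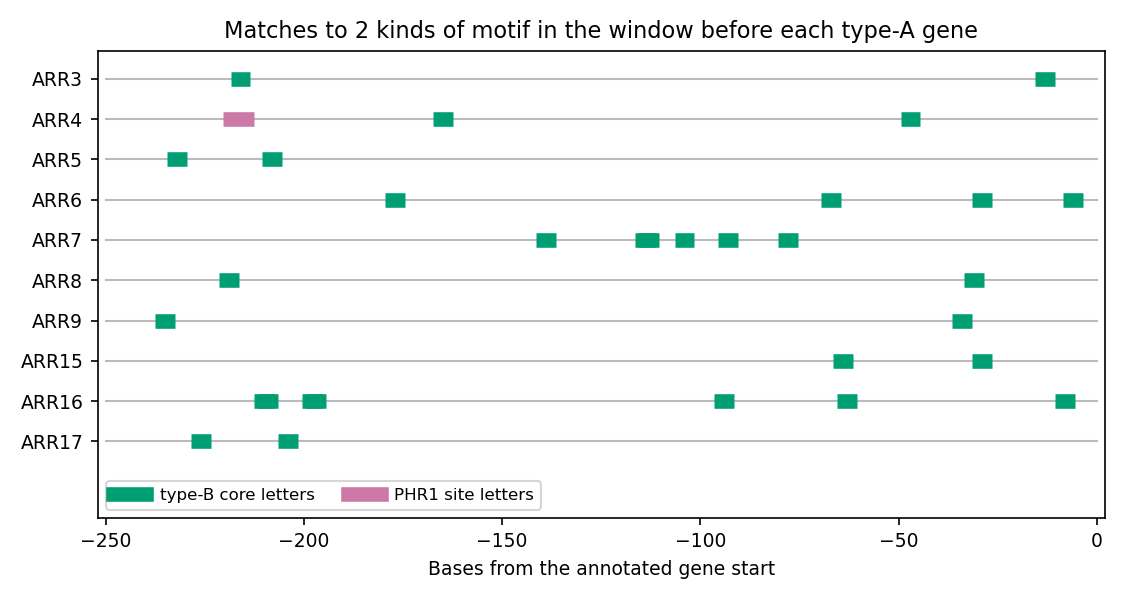
Positions of the core letters bound by type-B factors (green) and of the letters GNATATNC (pink) in the 250 bases before each of the 10 type-A genes, in bases from the annotated gene start. ARR7 and ARR16 had the core letters at 6 and 7 positions, and ARR6 at 4. The other 7 genes had them at 2 each.

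Of the 9 members tested, 8 had groups that did not overlap, beside 56.4% of all genes tested. Of these, 7 were lower in vih1vih2 and 1 was higher, where 27.5% and 28.9% of all genes tested did so in the same directions. The 6 that fell and the 1 that rose stayed called without any 1 library. Then 34.1% to 35.1% of all genes were called (34.4%, 34.5% and 35.1% without wild type 1, 2 and 3), 15.9% to 16.3% lower and 17.9% to 18.8% higher. The same 7 members were called with DESeq2's Wald test, which called 48.8% of all genes (23.4% lower, 25.4% higher), and with limma-voom, which called 41.9% (19.9% lower, 21.9% higher). They were also called with the replicate number as a block, where 28.4% of all genes were (13.2% lower, 15.2% higher), and with no filter, where 33.7% were (15.9% lower, 17.9% higher). DESeq2's size factors (19.3% lower, 21.6% higher), removal of organelle genes (41.0%, with 19.5% lower and 21.5% higher) and rows with 6-digit identifiers kept (40.8%) left these calls in place. With genes of at least 5 CPM in 3 libraries, ARR3 and ARR15 were not tested, and the other 5 stayed called among 43.8% of all genes (21.4% lower, 22.5% higher). No 2 members shared a stretch of 50 bases in their spliced transcripts.

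The order of the members by level also changed. Per kilobase of annotated exon, ARR4 had the highest mean in the wild type libraries, at 19.2 ± 15.1 CPM per kb. It ranged from 10.1 to 36.6, and in wild type 2 and 3 it lay below ARR9 and ARR8. ARR9 came next at 17.8 ± 1.58. ARR8 (11.5 ± 0.387), ARR5 (9.17 ± 1.47), ARR7 (7.98 ± 1.03) and ARR6 (7.76 ± 0.332) followed. ARR3 (2.30 ± 0.467), ARR15 (1.71 ± 0.248) and ARR16 (0.850 ± 0.0515) were lowest. Among neighbours in this order, ARR4 and ARR9, ARR5 and ARR7, ARR7 and ARR6, and ARR3 and ARR15 had overlapping libraries. In the libraries labelled vih1vih2, ARR8 came first at 9.97 ± 0.831 CPM per kb, then ARR4 (7.66 ± 5.89), ARR9 (5.18 ± 0.849), ARR6 (4.13 ± 0.146) and ARR7 (3.25 ± 0.243). ARR16, at 2.98 ± 0.350 CPM per kb, came above ARR5 (2.07 ± 0.147), ARR3 (0.743 ± 0.209) and ARR15 (0.278 ± 0.0204). Here ARR8 and ARR4, ARR4 and ARR9, and ARR7 and ARR16 overlapped. ARR4 lay above ARR8 in vih1vih2 2 and below ARR9 in vih1vih2 1 and 3.

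As a share of all type-A counts in a library, which does not depend on scaling, ARR9 took 17.6% to 29.1% in wild type and 10.8% to 18.1% in vih1vih2. ARR8 went the other way, from 15.8% to 23.8% in wild type to 30.1% to 37.7% in vih1vih2. ARR16 took 0.954% to 1.62% of type-A counts in wild type and 6.43% to 11.5% in vih1vih2, and ARR5 8.15% to 11.5% and 3.81% to 4.70%. ARR4 alone took 43.5% in wild type 1 and 36.3% in vih1vih2 2, against 14.0% to 18.2% in the other libraries.

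**Figure D3:**
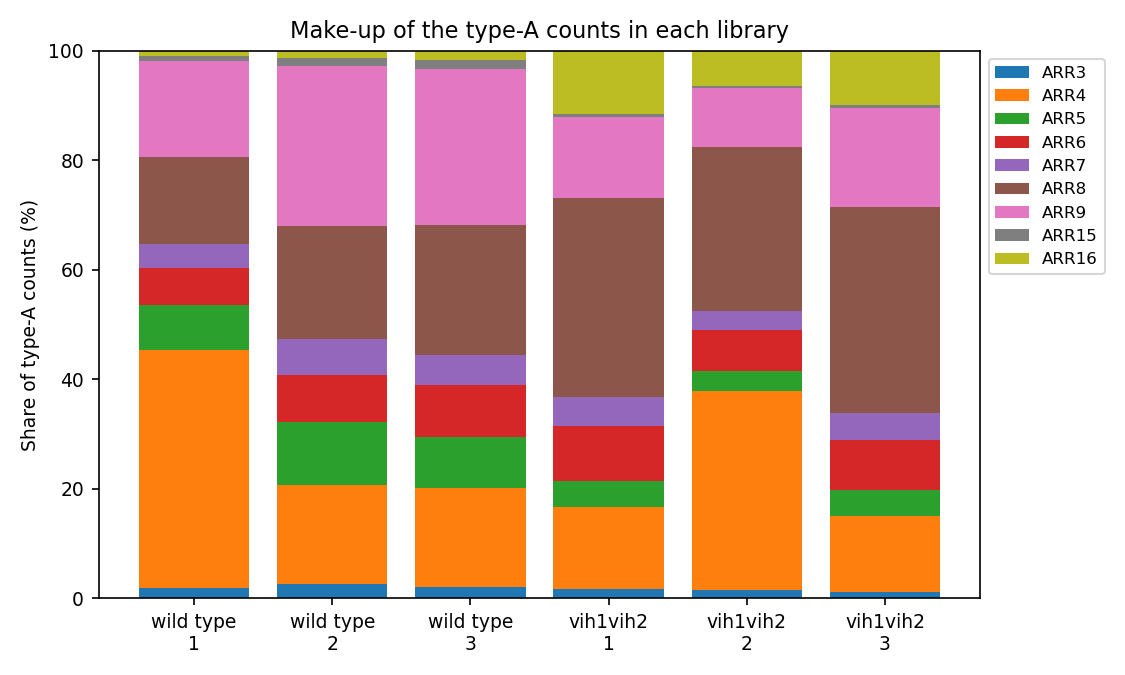
Share of type-A counts (%) that each of the 9 members took in each library. ARR16 widens from at most 1.62% in wild type to at least 6.43% in vih1vih2, and ARR4 is large in wild type 1 and vih1vih2 2.

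Summed over the 9 members, type-A transcript was 177, 127 and 117 CPM in wild type 1, 2 and 3 and 59.0, 83.7 and 64.6 CPM in vih1vih2 1, 2 and 3. The sum was 2.02-fold lower in vih1vih2 and the groups did not overlap. An exact permutation test, two-sided, gave p = 0.1, the lowest value possible with 3 libraries a group. Without ARR4, a choice made after the values were seen and so not tested, the sums were 99.9, 104 and 95.4 CPM against 50.1, 53.3 and 55.5 CPM, 1.88-fold lower.

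Ratios between close relatives differed between the groups for 3 of 4 pairs, without passing an exact test at this size. The members form pairs by coding sequence, with identity over aligned bases of 83.7% for ARR3 and ARR4, 82.1% for ARR5 and ARR6, 79.0% for ARR7 and ARR15, 81.3% for ARR8 and ARR9, and 84.9% for ARR16 and ARR17. The ratio of 2 members within a library does not depend on scaling, and it was compared between groups for the 4 pairs with both rows. The log2 ratio of ARR8 over ARR9 was −0.16, −0.50 and −0.26 in the wild type libraries and 1.29, 1.48 and 1.06 in those labelled vih1vih2. ARR9 thus had more counts than ARR8 in each wild type library and fewer in each labelled vih1vih2, a difference of 1.58 between the groups. For ARR5 over ARR6 the ratio was 0.28, 0.41 and −0.03 in wild type and −1.10, −0.97 and −0.95 in vih1vih2, a difference of −1.22. For ARR7 over ARR15 it was 2.34, 2.12 and 1.62 in wild type and 3.34, 3.30 and 3.29 in vih1vih2, a difference of 1.29.

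In these 3 pairs the groups did not overlap, and each had a two-sided exact permutation p of 0.1, the smallest possible (0.133 adjusted over 4 pairs). Of single genes tested, 56.4% had groups that did not overlap. How often ratios of other gene pairs lie apart was not tested. For ARR3 over ARR4 the ratio was −4.50, −2.78 and −3.20 in wild type and −3.15, −4.60 and −3.69 in vih1vih2. These ranges overlapped, with a difference of −0.32 (exact permutation p = 0.6, adjusted 0.6), and the outlying values were those of the 2 libraries with high ARR4.

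**Figure D4:**
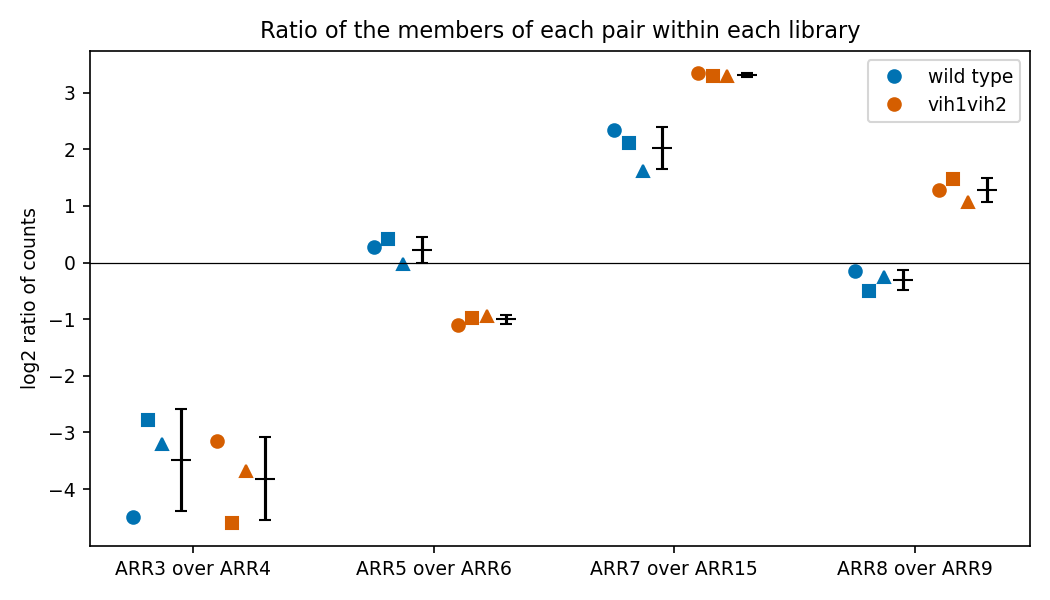
Log2 ratio of the counts of the 2 members of each pair in each library labelled wild type (blue) or vih1vih2 (orange), with mean ± SD of 3 libraries in black. The groups lie apart for ARR5 over ARR6, ARR7 over ARR15 and ARR8 over ARR9, and overlap for ARR3 over ARR4.

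By the rule for likeness of pattern, 3 genes of 16593 with at least 5 CPM lay closest to the summed type-A level over the 6 libraries. They were GHR1 (AT4G20940), a receptor-like kinase of stomatal signalling, MLO3 (AT3G45290) and AT1G74460, with root-mean-square distances of 0.107, 0.108 and 0.120 in centred log2 CPM. GHR1 was at 32.4, 26.6 and 24.9 CPM in wild type and 12.5, 15.3 and 13.9 CPM in vih1vih2. This is a description of 6 libraries in 2 groups, which any gene of like fold would share.

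Upstream of the type-A genes, 1 of 3 receptors and 2 of 6 AHP genes were called, 33.3% of each list beside 40.9% of all genes. The receptor AHK3 rose from 98.1 ± 29.3 to 180 ± 6.28 CPM (0.87 ± 0.24), a call lost without wild type 3 or any 1 library labelled vih1vih2. AHK4, which acts mainly in roots, was at 42.2 ± 5.13 against 24.5 ± 12.0 CPM and not called (−0.79 ± 0.43), with 588, 1606 and 1667 counts in vih1vih2 1, 2 and 3. AHK2 was at 31.6 ± 12.3 and 31.8 ± 12.3 CPM, and all 6 of its counts were also given to another gene row. Of 6 AHP genes 2 rose. AHP1 rose by 1.11 ± 0.20 and AHP4 by 1.33 ± 0.25, while AHP3 was at −0.18 ± 0.10, not called, with all 6 counts also given to another row. AHP5 had 6 counts each in wild type 1 and 2 and 553 in wild type 3. Without wild type 3 its fitted log2 fold change was 6.09, past the threshold, against 0.79 ± 1.69 with all libraries.

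Of 7 tested type-B factors, which activate type-A genes, 3 fell and 1 rose. These calls were 57.1% of the list, beside 40.9% of all genes tested (19.4% lower, 21.4% higher). ARR1, a main activator in roots and shoots, was at 83.4 ± 3.94 against 68.5 ± 6.98 CPM and not called (−0.28 ± 0.09, adjusted p = 0.0571). It was called without vih1vih2 2 (−0.37). ARR10 fell by 0.25 ± 0.07 and ARR11 by 0.67 ± 0.08. ARR14 fell by 1.13 ± 0.32, a call lost in 4 of 6 fits that left out a library (wild type 1, wild type 3, vih1vih2 2 or vih1vih2 3). The ARR10 call needed all libraries but wild type 3. Only 1 type-B gene fell without wild type 1 or vih1vih2 3. ARR12 was at 37.4 ± 17.7 against 35.6 ± 3.57 CPM and not called (−0.07 ± 0.40). It had 2779, 2284 and 695 counts in wild type 1, 2 and 3, and was called lower without wild type 3 (−0.42). ARR18 rose, with 6, 0 and 0 counts in wild type and 28, 18 and 29 in vih1vih2, and its call needed all libraries but wild type 1. The other 4 type-B genes and both type-C genes had no row and were not analysed here.

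Of the KMD F-box proteins, which mark type-B factors for degradation, all 3 tested were called, beside 40.9% of all genes. KMD1 fell from 406 ± 9.09 to 98.6 ± 3.76 CPM (−2.04 ± 0.05) and KMD4 from 464 ± 7.15 to 167 ± 0.955 CPM (−1.47 ± 0.03). KMD2 rose from 63.8 ± 1.64 to 97.8 ± 1.78 CPM (0.62 ± 0.05).

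Of 14 tested genes that make cytokinin, 5 fell and 1 rose. The calls made up 42.9% of this list, beside 40.9% of all genes tested (19.4% lower, 21.4% higher). The list's median was 0.02 in log2 fold change. CYP735A2, the hydroxylase that makes trans-zeatin forms, had 515, 361 and 371 counts in wild type and 34, 39 and 51 in vih1vih2, and fell by 3.44 ± 0.20. The isopentenyltransferases IPT5 and IPT3, which make the first step, fell by 2.53 ± 0.25 and 1.15 ± 0.11. LOG7, an enzyme that releases active cytokinin, fell by 0.86 ± 0.10, and LOG3 fell as well (−1.55 ± 0.27). IPT2, which modifies transfer RNA, was the 1 that rose (0.48 ± 0.08), and LOG8 was at 0.89 ± 0.32 and not called.

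Genes that break down or conjugate cytokinin moved both ways, with 3 of 9 higher and 2 lower. The share called was 55.6%, beside 40.9% of all genes. The cytokinin oxidase CKX2 had 24, 35 and 10 counts in wild type and 481, 404 and 396 in vih1vih2, 17.1-fold higher. CKX3 and CKX5 rose by 1.32 ± 0.26 and 1.27 ± 0.27, and CKX4 fell by 2.20 ± 0.25. The CKX5 counts were also given to another row, and its call was lost without wild type 1 or 3. UGT76C2, a glucosyltransferase, fell by 0.32 ± 0.08, a call that needed all libraries but wild type 3, and without it CKX4 alone fell. UGT85A1 had 3300, 170 and 2500 counts in wild type against 12370 to 14265 in vih1vih2 and was not called (2.66 ± 0.97), though it was without wild type 2 (2.11). PUP14, which takes cytokinin up into cells, fell by 1.00 ± 0.05, and the exporter ABCG14 was at 0.02 ± 0.32.

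The cytokinin response factors and a list of cytokinin-induced genes did not all follow the type-A genes. Of 6 cytokinin response factors, a class of transcription factors, 3 rose and 1 fell, 66.7% of them beside 40.9% of all genes. CRF6 rose by 1.70 ± 0.06, from 19.4 ± 0.479 to 63.1 ± 0.886 CPM, CRF1 by 0.70 ± 0.15 and CRF3 by 0.49 ± 0.13, and CRF4 fell by 0.95 ± 0.08. The CRF1 call was lost without vih1vih2 2, and that of CRF3 without wild type 1, wild type 2, vih1vih2 1 or vih1vih2 3. CRF2 was at −0.27 ± 0.09 and not called, but was called without vih1vih2 3 (−0.34), so that 2 fell. Of 5 further cytokinin-induced genes 2 fell, which is 40% called beside 40.9% of all genes. They were IAA3, an auxin response repressor that ARR1 activates in roots, at −2.37 ± 0.36, and RSM1 at −0.91 ± 0.28. The RSM1 call needed all libraries but vih1vih2 3. EXPA1, an expansin, was at 195 ± 1.59 against 69.6 ± 36.4 CPM, just missing the threshold (adjusted p = 0.05), and was called without vih1vih2 3 (−1.10). Over all 55 tested genes of these pathway lists 16 fell and 12 rose, 50.9% of them, beside 40.9% of all genes.

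**Figure D5:**
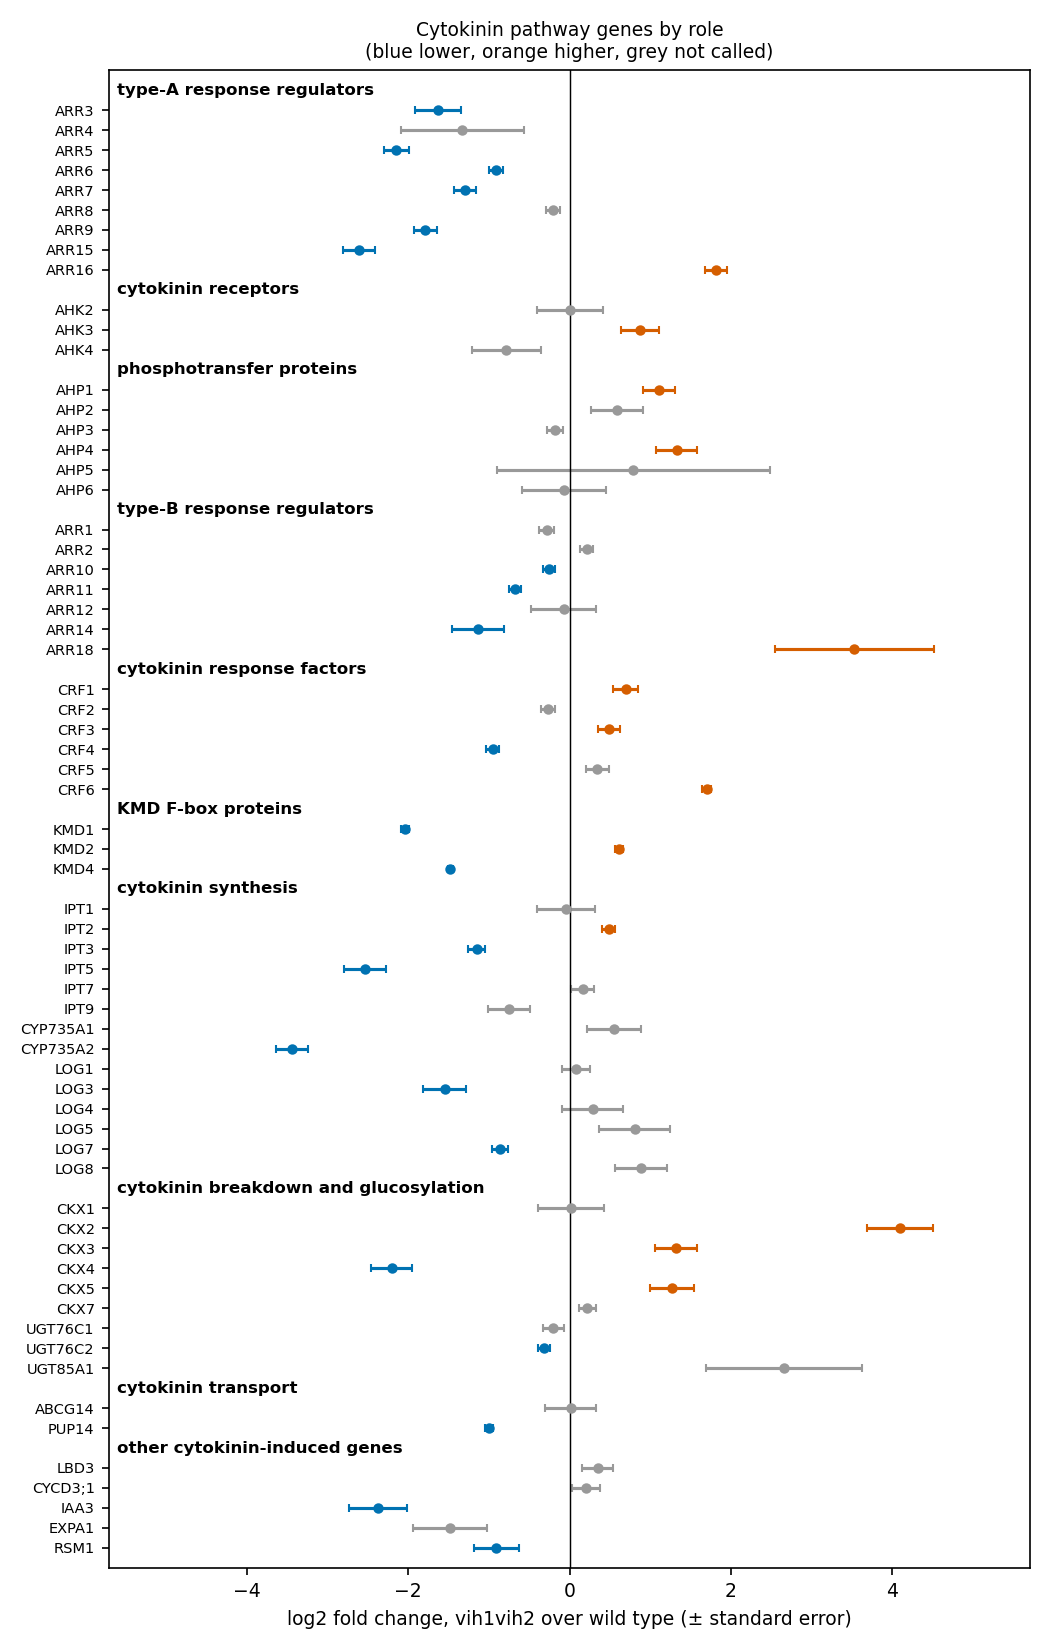
Log2 fold change, vih1vih2 over wild type ± standard error from edgeR, of the tested type-A genes and of 55 other cytokinin genes grouped by role. Blue genes were called lower, orange higher and grey not called. The type-A group holds 6 blue and 1 orange of 9, and the widest bar is that of AHP5.

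Type-A genes are transcribed in particular organs and cells, so markers of these are given beside the result. Over all genes tested, 19.4% were called lower and 21.4% higher, 40.9% in all. Of the root endodermis markers 57.1% were called, and of the root tip markers 40%. Of 7 markers of the root endodermis 4 fell, among them CASP1 (−1.43 ± 0.07), CASP2 (−2.24 ± 0.18) and CASP5 (−2.59 ± 0.18), whose proteins scaffold the Casparian strip. The list's summed level was 87.0 to 93.2 CPM in wild type and 45.5 to 47.8 CPM in vih1vih2. CASP4, of this list, was at −0.45 ± 0.14 and not called, and its counts were also given to another row. It was called lower without vih1vih2 1, with DESeq2's Wald test and with limma-voom, so that 5 fell. Not every marker was lower. MYB36, a transcription factor that drives endodermis differentiation, was at 7.43 ± 0.905 against 9.38 ± 0.827 CPM with no overlap between groups (0.34 ± 0.13), and ESB1 was at 0.49 ± 0.47, neither of them called. Of 5 root tip markers 1 fell (PLT1, −1.42 ± 0.14) and 1 rose (WOX5, 0.87 ± 0.22, a call lost without wild type 1, wild type 3, vih1vih2 2 or vih1vih2 3). Their sum was 59.2 to 80.5 against 85.7 to 91.6 CPM, and SCR, not called at 0.68 ± 0.33, was called without wild type 2, so that 2 rose.

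Of the tested shoot meristem markers 60% were called and of the stomatal ones 25%, beside 40.9% of all genes (19.4% lower, 21.4% higher). Of 5 tested shoot meristem markers 3 rose, which were STM (0.76 ± 0.14), KNAT1 (0.51 ± 0.13) and CUC1 (0.95 ± 0.21). CUC2 was at 0.86 ± 0.43 and not called. CUC3, the other tested marker, was at −0.99 ± 0.53 and not called, with 0.624 ± 0.161 CPM in wild type and 0.311 ± 0.197 CPM in vih1vih2. The KNAT1 call needed all libraries but wild type 1. The list's summed level was 14.9 to 19.0 CPM in wild type and 24.5 to 26.8 CPM in vih1vih2. WUS, a repressor of several type-A genes in the shoot stem cell niche, had 0 counts in 5 libraries and 8 in vih1vih2 3. Another row had the same counts in every library, which at counts this low need not mean shared reads. CLV3 had 0 to 8 per library. Without vih1vih2 1 or 3, 1 of these markers (STM) rose. Of 8 markers of the stomatal lineage, where ARR16 is known to act, EPF2 rose (0.94 ± 0.17) and SDD1 fell (−0.40 ± 0.09), while TMM was at −0.20 ± 0.10 and not called. SPCH, which encodes SPEECHLESS, was at 8.21 ± 0.486 and 8.45 ± 2.99 CPM (0.04 ± 0.29). The summed level of this list was 94.96 to 101 CPM in wild type and 109 to 111 CPM in vih1vih2, and none of its markers was at 0. The SDD1 call was lost without wild type 2 or vih1vih2 2, and 2 or 3 of these markers rose without wild type 2 or 3. The part of any of these marker shifts in the type-A result was not tested.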

How the data were processed

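The authors deposited raw counts per gene for the 6 libraries. CASAVA 1.4, STAR 2.5.3a, StringTie 1.3.3b and build TAIR10 are named in the submitters' processing notes. The counting tool, annotation and strand setting were not stated. Of 27080 rows, 280 with identifiers of 6 digits were left out, and none was a type-A gene. No row of a type-A gene shared all 6 counts with another row. Libraries of a group were not copies of each other (chi-square per degree of freedom 116.8 to 143.1).

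All genes were fitted together in R 4.3.3 with edgeR 4.0.16 (filterByExpr, TMM, quasi-likelihood test, group as the only term). Standard errors were taken as |log2 fold change| divided by the root of the F statistic. Pair ratios used a pseudocount of 0.5. Alternatives used limma 3.58.1, DESeq2 1.42.0 and the settings given in the closing section. Gene structures, symbols and sequences came from RefSeq's TAIR10.1, whose nuclear chromosomes were taken to match TAIR10. The counts carry no coordinates. Coding identity was from global alignment in Biopython 1.88.

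The members, lists and tests were chosen with earlier results of these data known. From each list the text names the called members, or the 4 of largest change with at least 1 CPM where more than 4 were called, and the best expressed member not called. AHK2, AHP5, ARR12, IPT2, LOG3, UGT76C2, WUS, CLV3, CUC3, MYB36, ESB1 and SPCH are named beside these, chosen after their values were seen. The values of 1 called marker gene are not reported here.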

Additional observations from a re-analysis of the deposited data

How the results depend on the processing

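Of the type-A members, 6 fell and 1 rose under each alternative run, except that with genes of at least 5 CPM in 3 libraries ARR3 and ARR15 were not tested and 4 fell. Without 1 library the log2 fold change of the summed type-A level was −1.16 to −0.83, and the differences in log2 ratio were −1.35 to −1.13 for ARR5 over ARR6, 1.08 to 1.44 for ARR7 over ARR15, 1.48 to 1.69 for ARR8 over ARR9 and −0.825 to 0.0732 for ARR3 over ARR4. The last reversed without replicate 2 of either group (0.0376 and 0.0732). ARR4 left out of the sum was chosen after seeing the data.

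Counts from the short lists moved more. Without 1 library the number that rose was 0 to 1 for receptors, 0 to 1 for type-B, 1 to 3 for shoot meristem, 1 to 3 for stomatal and 0 to 2 for root tip genes, and the number that fell was 1 to 3 for type-B, 1 to 2 for response factors, 1 to 2 for breakdown, 1 to 3 for other cytokinin-induced and 0 to 1 for stomatal genes. The correlation of deviations between libraries of the same number was 0.0306, −0.0120 and −0.0251, so the numbers were not taken to pair the samples, and not every library correlated best with its own number. With the replicate number as a block 6483 genes were called in place of 9324, with 0 receptors, 0 type-B and 1 shoot meristem gene higher, and 1 breakdown, 1 other cytokinin-induced and 0 stomatal genes lower. Of the genes named singly, 11 were then not called, which were AHK3, ARR10, ARR18, CRF3, LOG3, CKX3, UGT76C2, RSM1, STM, CUC1 and SDD1. At an adjusted p under 0.01, 5 genes of the pathway lists rose in all. By list these were 0 receptor, 1 shuttle, 0 type-B, 1 response factor, 1 KMD, 1 synthesis and 1 breakdown gene. At this threshold 1 shoot meristem and 0 root tip genes rose, and 1 type-B, 1 breakdown, 1 other cytokinin-induced and 0 stomatal genes fell. The share of all genes called at 0.01 was not counted, so these counts and the type-A calls at 0.01 have no background beside them. DESeq2's Wald test called 2 type-B, 2 synthesis, 3 stomatal and 1 endodermis genes higher and 2 response factors lower, and limma-voom 2 stomatal genes higher and 2 response factors lower. No filter left 0 type-B genes higher and 1 other cytokinin-induced gene lower. The filter of 5 CPM left 1 shuttle, 0 type-B and 0 root tip genes higher, and 1 other cytokinin-induced and 0 root tip genes lower. These counts dropped because AHP4, ARR18, WOX5, RSM1 and PLT1 did not pass the filter and were not tested. With this filter 2 response factors fell. With DESeq2's size factors, or with the 6-digit rows kept, 1 other cytokinin-induced gene fell. Removing organelle genes moved none of these counts by over 1.5 times. With 14 to 17 counts of ARR15 per library labelled vih1vih2, depth limits its level more than that of any other member.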

Other observations

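The ARR4 pattern was shared by few genes. Of 16599 tested genes with at least 5 CPM in the mean, 198 were at least 2-fold higher in wild type 1 than in both other wild type libraries, 177 were so in vih1vih2 2 within its group, and 13 (0.0783%), ARR4 among them, were so in both. This count was made after the ARR4 values were seen.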
